A study of Mus musculus with 12 samples.

Results

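The DNA replication genes are a set of 39 genes whose products license replication origins, unwind and copy DNA at the fork, supply deoxynucleotides or control entry into S phase. They were chosen by gene symbol, not by their values, and 38 of the 39 were found among the 39032 genes of the expression table, each once. Tyms, the 39th, was not analysed here. All 38 were among the 11548 genes with at least 1 FPKM (fragments scaled to transcript length and to the mapped fragments of the library) in at least 3 of the 12 libraries, and these 11548 genes were tested. The cells were MC3T3-E1 subclone 14, a single subclone of a wild-type mouse pre-osteoblast line, kept in osteogenic medium with ascorbic acid phosphate at 50 µg/mL and β-glycerophosphate at 5 mM and collected on day 5. Control cultures received vehicle. The RSPO2 arm received recombinant mouse R-spondin 2 at 200 ng/ml, the BMP2 arm recombinant bone morphogenetic protein 2 at 100 ng/ml, and the BMP2+RSPO2 arm both proteins at these doses. Each arm had 3 biological replicates, described as independent, and poly(A) RNA of every culture was sequenced. The design asks which transcripts each protein alters alone and which they alter together.

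A chromosome is copied from origins that the origin recognition complex, CDC6 and CDT1 license in G1 by loading the ring-shaped MCM2-7 helicase. At the start of S phase, CDC45 and the GINS complex join the ring to form the active helicase, primase starts new strands, and the polymerases delta and epsilon extend them while tethered to the PCNA clamp that replication factor C loads. Most of these genes are targets of E2F transcription factors, which the retinoblastoma protein holds back until cyclin E and its kinase act, so their transcripts are abundant in proliferating osteoblast precursors and low in cells that have left the cycle. BMP2 is a growth factor that drives osteoblast differentiation through SMAD proteins, and R-spondins strengthen WNT signalling at the cell surface.

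All 8 osteoblast lineage markers examined (Runx2, Sp7, Alpl, Ibsp, Col1a1, Col1a2, Dlx5 and Postn) were at or above 1 FPKM in every library. Of 4 markers each, all adipocyte markers, 3 each for skeletal muscle, macrophages and epithelium and 2 for endothelium stayed under 1 FPKM in every library, as did 1 for chondrocytes (Acan, at 0 in every library), while the chondrocyte marker Sox9 was at or above it in every library. The summed FPKM of the 4 chondrocyte markers differed by arm, at 7.13 to 12.7 in Control, 3.89 to 4.55 in RSPO2, 21.8 to 44.1 in BMP2 and 13.4 to 21.8 in BMP2+RSPO2, and the part of these cells in the results was not tested. One library stood apart. In BMP2+RSPO2 replicate 1 the FPKM values summed to 635139, against 322074 to 380507 in the others, the 10 most abundant genes held 57.8% of the sum, and 5 RNA polymerase III transcripts held 19.1% against at most 2.3% elsewhere. The median of 36 replication-dependent histone genes was 35.1 FPKM there and 0.34 to 2.01 FPKM in the other 11 libraries. Over all tested genes the median log2 difference was −0.26 for BMP2+RSPO2 against Control, −0.19 against BMP2 and −0.26 against RSPO2, and −0.06 and 0.01 for BMP2 and RSPO2 against Control. Differences of the BMP2+RSPO2 arm are therefore given beside these shifts, or after dividing each library by a median-of-ratios factor, which left all 5 medians between −0.03 and −0.01 and was 0.827 for this library, 0.899 and 0.896 for the other two of its arm and 0.978 to 1.12 elsewhere. The part of this library's make-up in the results below was not tested, and counts of called or non-overlapping genes in the comparisons of BMP2+RSPO2 with BMP2 and with Control are given with and without it.

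The promoters of 5 replication genes are shown first, as RefSeq gives them on GRCm38.p6. They run from 250 bases before to 50 after the annotated start, 5′ to 3′ on the gene's strand. Mcm6, Prim1, Rrm1 and Pold2 were chosen for their small p in the fit with the replicate number as a block, given below. Orc6 was chosen as the most abundant licensing gene. Capitals mark E2F motifs, searched as TTTCCCGC, TTTGGCGC, TTTCGCGC and TTTGCCGC on both strands.
Mcm6 (chr1:128359656-128359955, minus strand): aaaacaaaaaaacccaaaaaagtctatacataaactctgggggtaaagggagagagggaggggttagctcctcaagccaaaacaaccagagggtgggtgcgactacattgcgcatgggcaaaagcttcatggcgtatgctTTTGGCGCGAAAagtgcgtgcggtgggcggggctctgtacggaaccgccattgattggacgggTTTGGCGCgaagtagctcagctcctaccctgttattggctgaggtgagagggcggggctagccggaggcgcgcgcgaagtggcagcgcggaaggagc
Prim1 (chr10:128014965-128015264, plus strand): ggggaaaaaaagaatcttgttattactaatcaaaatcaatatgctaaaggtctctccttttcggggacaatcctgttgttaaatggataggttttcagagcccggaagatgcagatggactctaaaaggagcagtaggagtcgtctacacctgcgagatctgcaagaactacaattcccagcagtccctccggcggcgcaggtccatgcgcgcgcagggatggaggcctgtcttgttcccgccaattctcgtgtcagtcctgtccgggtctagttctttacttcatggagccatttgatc
Rrm1 (chr7:102441445-102441744, plus strand): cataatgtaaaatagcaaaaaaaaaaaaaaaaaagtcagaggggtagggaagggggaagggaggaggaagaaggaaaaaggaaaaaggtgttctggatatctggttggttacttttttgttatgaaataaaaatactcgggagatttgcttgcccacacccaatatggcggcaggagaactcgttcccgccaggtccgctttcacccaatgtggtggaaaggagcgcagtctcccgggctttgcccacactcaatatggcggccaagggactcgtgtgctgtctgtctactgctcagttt
Pold2 (chr11:5878207-5878506, minus strand): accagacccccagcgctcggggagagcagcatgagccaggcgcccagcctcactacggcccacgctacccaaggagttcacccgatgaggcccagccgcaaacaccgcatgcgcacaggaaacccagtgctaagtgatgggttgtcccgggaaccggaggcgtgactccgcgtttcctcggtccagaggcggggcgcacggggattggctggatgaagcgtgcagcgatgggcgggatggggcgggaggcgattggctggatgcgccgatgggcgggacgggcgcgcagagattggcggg
Orc6 (chr8:85299382-85299681, plus strand): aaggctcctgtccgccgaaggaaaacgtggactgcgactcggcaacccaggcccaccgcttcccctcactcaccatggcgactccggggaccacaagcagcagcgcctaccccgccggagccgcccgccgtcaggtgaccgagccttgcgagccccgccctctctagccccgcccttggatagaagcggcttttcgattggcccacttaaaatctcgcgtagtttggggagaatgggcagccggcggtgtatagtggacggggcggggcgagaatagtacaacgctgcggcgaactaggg
Only the Mcm6 window of these 5 holds a motif in one of the forms searched. It has TTTGGCGC at 110 bases before the start, the overlapping GCGCGAAA (the reverse strand of TTTCGCGC) at 106 before it, and TTTGGCGC again at 47 before it. Pold2 has 2 annotated starts, and the first is shown. Each of the 5 windows holds at least 1 CCAAT motif, read on either strand (CCAAT or ATTGG), with 3 in Pold2, 2 each in Mcm6 and Rrm1 and 1 each in Prim1 and Orc6. RefSeq windows were matched for 32 of the 39 listed genes. Of the 32, 12 (37.5%) held an E2F motif in one of the forms searched, against 2.6% of all 27025 genes with a window. Those 12 were Orc1, Cdc6, Cdt1, Mcm3, Mcm5, Mcm6, Mcm7, Gins3, Pold1, Pole2, Rfc3 and Lig1. CCAAT was in 20 of the 32 (62.5%, against 41.1% of all genes), and the cell cycle motif TTTGAA, also searched on both strands, in 5 of 32 (15.6%, against 20.2%). A match of letters is a description of the window and not a site shown to be bound.

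Expression of the 38 genes spanned a wide range per transcript length. The mean over the 12 libraries ran from 1.62 FPKM for Orc1, the largest subunit of the origin recognition complex, to 85.2 FPKM for Pcna, the sliding clamp, with Rrm1, the large subunit of ribonucleotide reductase, next at 40.8 FPKM and Mcm4, a helicase subunit, at 31.2 FPKM. Orc1, Pole and Mcm10 dropped under 1 FPKM in some libraries, and no other replication gene did.

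The first replicate of each arm held more replication transcripts than the other two, which is why the arms are compared within a replicate number below. This difference was known when the set was drawn up and is given here as a description, without a test. The median over the 38 genes was 23.0, 7.94 and 8.49 FPKM in replicates 1, 2 and 3 of Control, 19.0, 6.34 and 6.77 FPKM in RSPO2, 18.5, 10.5 and 10.2 FPKM in BMP2, and 11.9, 6.06 and 5.02 FPKM in BMP2+RSPO2. Replicates 2 and 3 of an arm lay close together, at a median difference of 1.05 to 1.1 fold over the 38 genes. Replicate 1 was the highest of the arm for 38 of 38 genes in Control, RSPO2 and BMP2 and for 36 in BMP2+RSPO2, where Gins2 and Rfc4 were the exceptions. Over all tested genes it was the highest for 51.7%, 44.5%, 55.4% and 35.9% in these arms. The median fold of replicate 1 over the mean of replicates 2 and 3 was 2.86 in Control, 3.04 in RSPO2, 1.91 in BMP2 and 2.07 in BMP2+RSPO2. Tk1, the salvage thymidine kinase, had the widest gap in Control (5.08 fold) and in BMP2 (3.06 fold), and Ccne2, a cyclin E, had it in RSPO2 (6.11 fold). The median of 15 mitotic genes, which are transcribed after S phase, moved with it: it was 38.2 to 39.1 FPKM in the first replicates of Control, RSPO2 and BMP2, 19.2 FPKM in that of BMP2+RSPO2 and 6.65 to 15.9 FPKM in all later ones. In bulk RNA, fewer cycling cells and less transcript per cell cannot be told apart.

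**Figure D1:**
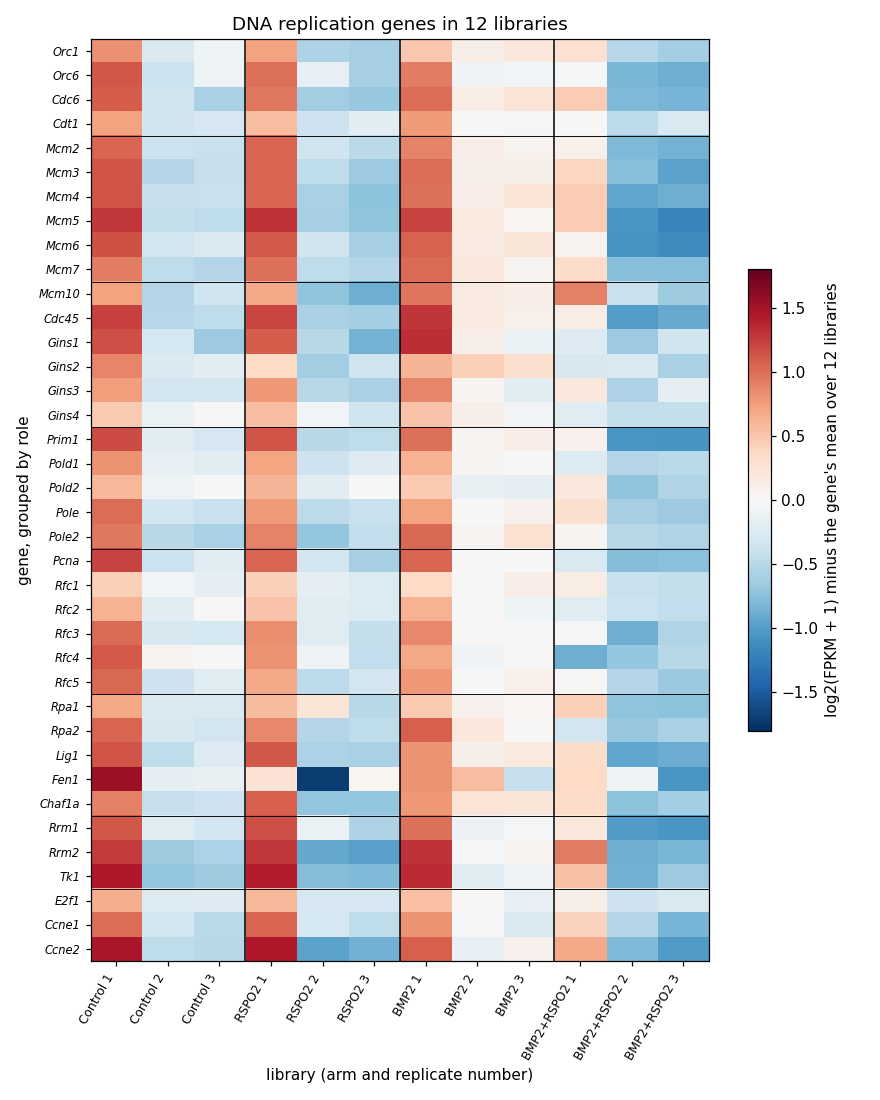
Each column is a library, named by arm and replicate number, and each row a replication gene, grouped by role with horizontal lines. Colour gives log2(FPKM + 1) minus the gene's mean over the 12 libraries. The first library of Control, RSPO2 and BMP2 is red for nearly all genes, and replicates 2 and 3 of BMP2+RSPO2 are the bluest block.

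**Figure D2:**
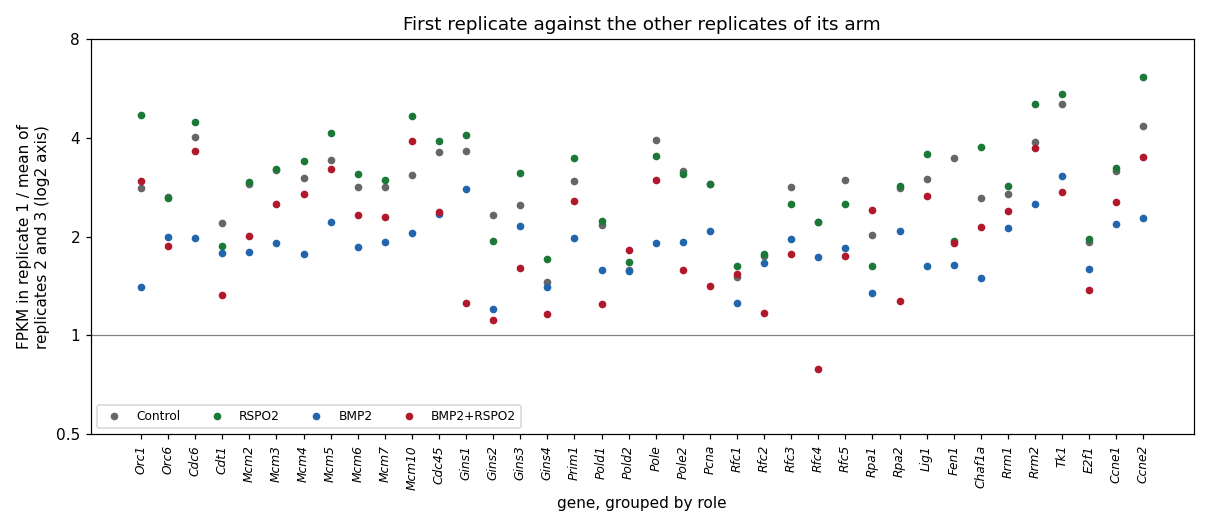
For each of the 38 genes, a point per arm gives FPKM in replicate 1 divided by the mean of replicates 2 and 3, on a log2 axis. The points lie above 1 except Rfc4 in BMP2+RSPO2 at 0.791, and those of BMP2 lie mostly below those of Control and RSPO2.

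Adding RSPO2 to BMP2 was accompanied by less transcript of nearly every replication gene. With libraries compared within a replicate number, all 38 genes were lower in BMP2+RSPO2 than in BMP2 in replicates 1 and 2, and 37 of 38 in replicate 3, where Gins3 was at 1.03 times its BMP2 level. Of all tested genes, 72.4%, 61.9% and 65.6% were lower in these replicates, and 42.4% were lower in all 3, against 37 of the 38. The median FPKM ratio over the 38 genes was 0.578, 0.552 and 0.534 in replicates 1, 2 and 3. In the linear model with the 4 arms (limma on log2(FPKM + 1), two-sided, Benjamini-Hochberg over the 11548 genes, called at an adjusted p under 0.05), 0 of the 38 genes passed, against 3.74% of all tested genes called lower and 0.641% called higher. In that fit the gap between replicate 1 and the others counts as noise, and 3 of the 38 had an unadjusted p under 0.05. When the replicate number entered the same model as a block, 28 of the 38 fell and 0 rose, against 13.0% of all tested genes called lower and 1.78% called higher. The median log2 change was −0.76 for the 38 genes and −0.19 for all tested genes. After median-of-ratios scaling the medians were −0.57 and −0.02, and the blocked fit called 14 of the 38 lower and 0 higher, against 5.06% and 4.49% of all genes. Blocked and without BMP2+RSPO2 replicate 1, the library with the RNA polymerase III transcripts, it called 23 of the 38 lower and 0 higher, against 13.2% and 3.06%. Without that library Cdt1, Gins2, Pole, Pole2, Chaf1a and Ccne1 no longer passed, and Rpa1 did. The 14 called with scaling were Orc6, Cdc6, all of Mcm2 to Mcm7, Cdc45, Prim1, Pcna, Rfc3, Rpa2 and Rrm1.

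**Figure D3:**
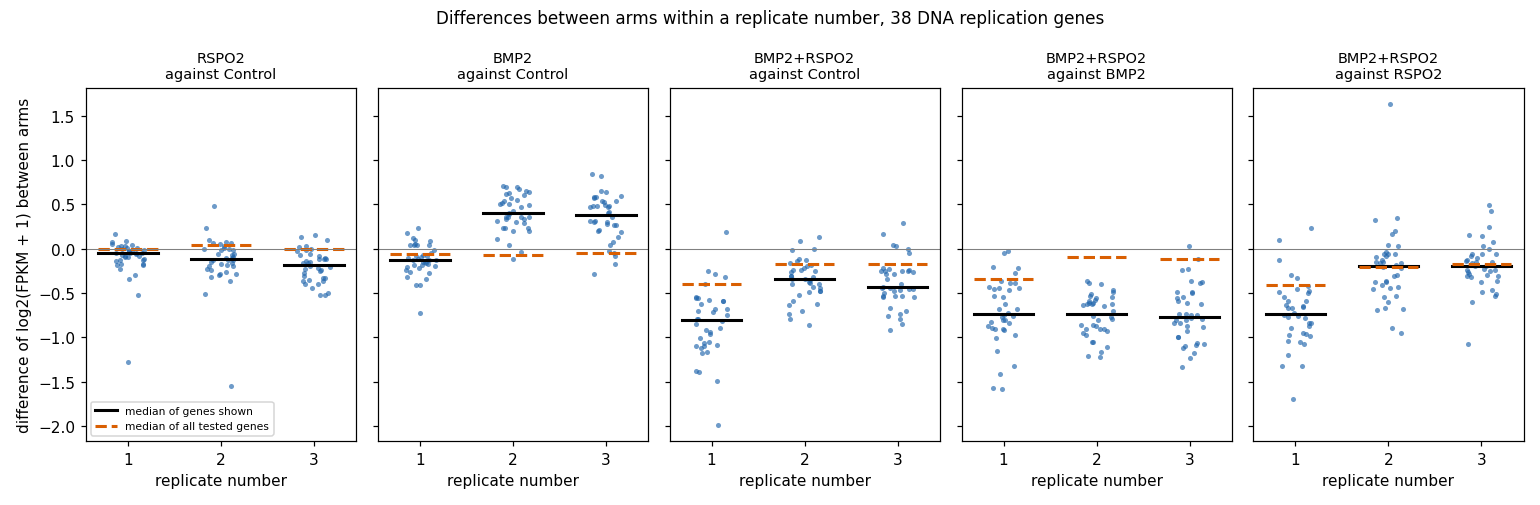
Points are the 38 replication genes, and the vertical axis is the difference of log2(FPKM + 1) between arms within replicate 1, 2 or 3. Black bars are medians of the 38 genes and dashed bars those of all tested genes. For BMP2+RSPO2 against BMP2 the black bars lie between −0.77 and −0.74 in all 3 replicates, while for BMP2 against Control they lie at −0.13 in replicate 1 and at 0.40 and 0.38 in replicates 2 and 3.

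Among the licensing factors, Orc6, Cdc6 and Cdt1 fell with the block and Orc1 did not pass. Orc6, the smallest subunit of the origin recognition complex and the most abundant transcript of this role, had 57.6, 19.6 and 24.2 FPKM in replicates 1, 2 and 3 of Control, 52.6, 23.2 and 16.8 in those of RSPO2, 49.8, 24.8 and 25 in those of BMP2 and 26, 14.2 and 13.6 in those of BMP2+RSPO2. All 3 BMP2+RSPO2 values lay below the same-numbered value of every other arm, although BMP2+RSPO2 replicate 1 lay above replicates 2 and 3 of the other arms. The log2 change of Orc6 against BMP2 was −0.84 with an SE of 0.49 and an adjusted p of 0.300 in limma, and with the block the SE was 0.16 and the adjusted p 0.0179.

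All 6 subunits of the MCM2-7 helicase fell with the block, against 13.0% of all tested genes called lower. Their median log2 change of −0.89 was the largest of the 8 roles. Mcm6 had 51.1, 17.5 and 18.6 FPKM in replicates 1, 2 and 3 of Control, 49.4, 17.4 and 14.6 in those of RSPO2, 48.2, 25.2 and 26.4 in those of BMP2 and 23.5, 10.3 and 9.91 in those of BMP2+RSPO2. Its highest BMP2+RSPO2 value lay below its lowest BMP2 value, so these 2 arms did not overlap. Mcm6 had a log2 change of −1.18 with an SE of 0.54 and an adjusted p of 0.199 in limma, and with the block an SE of 0.15 and an adjusted p of 0.00618, the smallest of the 38 genes. Mcm4, the most abundant subunit, had 60.8, 20.1 and 20.3 FPKM in replicates 1, 2 and 3 of Control, 57.3, 17.9 and 15.9 in those of RSPO2, 54.8, 29.6 and 32.2 in those of BMP2 and 37.7, 13.7 and 14.3 in those of BMP2+RSPO2. BMP2+RSPO2 replicate 1 of Mcm4 overlapped with the BMP2 libraries, and its log2 change was −0.90 with an adjusted p of 0.340, or 0.0179 with the block in limma. Scaled by median of ratios, the blocked fit still called 6 of 6 subunits lower, against 5.06% of all tested genes.

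Of the helicase activators, Cdc45, Gins2 and Gins4 fell with the block, while Gins1, Gins3 and Mcm10 did not pass. Gins4, a subunit of the GINS complex, had 33, 21.6 and 23.7 FPKM in replicates 1, 2 and 3 of Control, 35, 22.7 and 18.1 in those of RSPO2, 34, 25.6 and 22.9 in those of BMP2 and 20.1, 17.3 and 17.3 in those of BMP2+RSPO2. The BMP2+RSPO2 values of Gins4 lay below all 9 values of the other arms except RSPO2 replicate 3. Its log2 change against BMP2 was −0.55 with an SE of 0.24 and an adjusted p of 0.180 in limma, or 0.0301 with the block, and 0.0712 with the block after median-of-ratios scaling. Mcm10, which helps to start unwinding, was lower in all 3 replicates, but its BMP2+RSPO2 value in replicate 1, 5.35 FPKM, was nearly that of BMP2, 5.57 FPKM.

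All 5 polymerase and primase genes (Prim1, Pold1, Pold2, Pole and Pole2) fell with the block, against 13.0% of all tested genes called lower. After median-of-ratios scaling the blocked fit called only Prim1 of these, against 5.06% of all genes. Pole and Pole2 also did not pass with the block when BMP2+RSPO2 replicate 1 was left out. Prim1, the catalytic subunit of primase, had 18.6, 6.59 and 6 FPKM in replicates 1, 2 and 3 of Control, 18, 5.08 and 5.31 in those of RSPO2, 16.2, 7.95 and 8.35 in those of BMP2 and 8.11, 3.16 and 3.14 in those of BMP2+RSPO2. Replicates 2 and 3 with both proteins were the lowest of the 12 libraries, and replicate 1 with both lay level with replicates 2 and 3 of BMP2. The log2 change of Prim1 was −1.07 with an SE of 0.54 and an adjusted p of 0.242 in limma, and with the block an SE of 0.14 and an adjusted p of 0.00743. Pold2, the accessory subunit of polymerase delta and the most abundant of this role, had 29.9, 18.2 and 19.6 FPKM in replicates 1, 2 and 3 of Control, 30.3, 17 and 19.4 in those of RSPO2, 27.3, 17.7 and 17.2 in those of BMP2 and 22.3, 11.4 and 13.1 in those of BMP2+RSPO2. Pold2 changed less, by −0.41 on the log2 scale, with an adjusted p of 0.392 in limma, 0.0207 with the block and 0.231 with the block after median-of-ratios scaling.

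In the clamp and its loader, Pcna, Rfc1, Rfc2, Rfc3 and Rfc5 fell with the block, and Rfc4 had an adjusted p of 0.0617 in limma. After median-of-ratios scaling the blocked fit called only Pcna and Rfc3 of this role. Pcna, the clamp itself, had 177, 57.4 and 65.3 FPKM in replicates 1, 2 and 3 of Control, 157, 59.5 and 49.4 in those of RSPO2, 157, 75.9 and 74.7 in those of BMP2 and 62.1, 43.4 and 44.5 in those of BMP2+RSPO2. Every BMP2+RSPO2 value lay below every BMP2 value, and the first replicate was 0.396 times that of BMP2. The log2 change of Pcna was −0.95 with an SE of 0.51 and an adjusted p of 0.262 in limma, or 0.0274 with the block. Rfc4, a small subunit of the loader, did not overlap between BMP2+RSPO2 and any other arm, at 5.46, 6.38 and 7.43 FPKM against 7.77 FPKM or more elsewhere. Of all tested genes, 44.0%, 33.6% and 42.3% did not overlap between BMP2+RSPO2 and Control, BMP2 and RSPO2, so lack of overlap was common. Its within-replicate ratio to BMP2 ranged from 0.298 in replicate 1 to 0.689 in replicate 3.

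Rpa2 of the single-strand binding complex, Lig1, the ligase that seals lagging-strand fragments, and Chaf1a, a chaperone that places histones behind the fork, fell with the block, while Rpa1 and Fen1 did not pass. Rpa1, the large subunit of the complex, had 22.9, 11.4 and 11.2 FPKM in replicates 1, 2 and 3 of Control, 20.9, 16.3 and 9.49 in those of RSPO2, 19.4, 14.6 and 14.2 in those of BMP2 and 19, 7.94 and 7.86 in those of BMP2+RSPO2. Its first replicates with BMP2 and with both proteins were nearly equal, with a ratio of 0.977, while replicates 2 and 3 stood at 0.542 and 0.553. Its log2 change was −0.54 with an adjusted p of 0.381 in limma, or 0.0855 with the block, and 0.0457 with the block without BMP2+RSPO2 replicate 1. Fen1, the flap endonuclease, scattered within arms, with 12.1, 2.32 and 10.1 FPKM in RSPO2 and 18.1, 15 and 7.14 FPKM in BMP2, and no comparison of it passed in limma with or without the block.

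Rrm1 and Rrm2, the subunits of ribonucleotide reductase that makes deoxynucleotides, fell with the block, and Tk1 had an adjusted p of 0.0517. Rrm1 had 78.8, 30.4 and 28 FPKM in replicates 1, 2 and 3 of Control, 81.1, 32.7 and 24.1 in those of RSPO2, 71.8, 33 and 34.7 in those of BMP2 and 40.7, 17.2 and 16.8 in those of BMP2+RSPO2. Its replicates 2 and 3 with both proteins were the lowest 2 libraries, at 0.520 and 0.485 times the BMP2 level, and the first replicate was at 0.568 times. The log2 change of Rrm1 was −0.90 with an SE of 0.55 and an adjusted p of 0.313 in limma, and with the block an SE of 0.13 and an adjusted p of 0.00825.

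Among the regulators of S phase entry, Ccne1, a cyclin E, fell with the block, while E2f1 and Ccne2 did not pass. E2f1, the transcription factor, had 18.9, 9.72 and 9.81 FPKM in replicates 1, 2 and 3 of Control, 18.2, 9.25 and 9.28 in those of RSPO2, 17.5, 11.6 and 10.4 in those of BMP2 and 12.6, 8.8 and 9.47 in those of BMP2+RSPO2. The BMP2+RSPO2 values of E2f1 overlapped with those of BMP2, and its log2 change of −0.31 (adjusted p of 0.538 in limma, 0.103 with the block) was the smallest of the 38 genes. The arms of 9 genes did not overlap between BMP2+RSPO2 and BMP2 (Mcm6, Gins1, Gins2, Gins4, Pold1, Pcna, Rfc2, Rfc4 and Rpa2, all lower), which is 9 of 38 against 33.6% of all tested genes. Without BMP2+RSPO2 replicate 1, which was the highest of its arm for 36 of the 38 genes, 36 of 38 lay below BMP2 without overlap (Gins3 and Fen1 did not), against 52.9% of all tested genes.

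**Figure D4:**
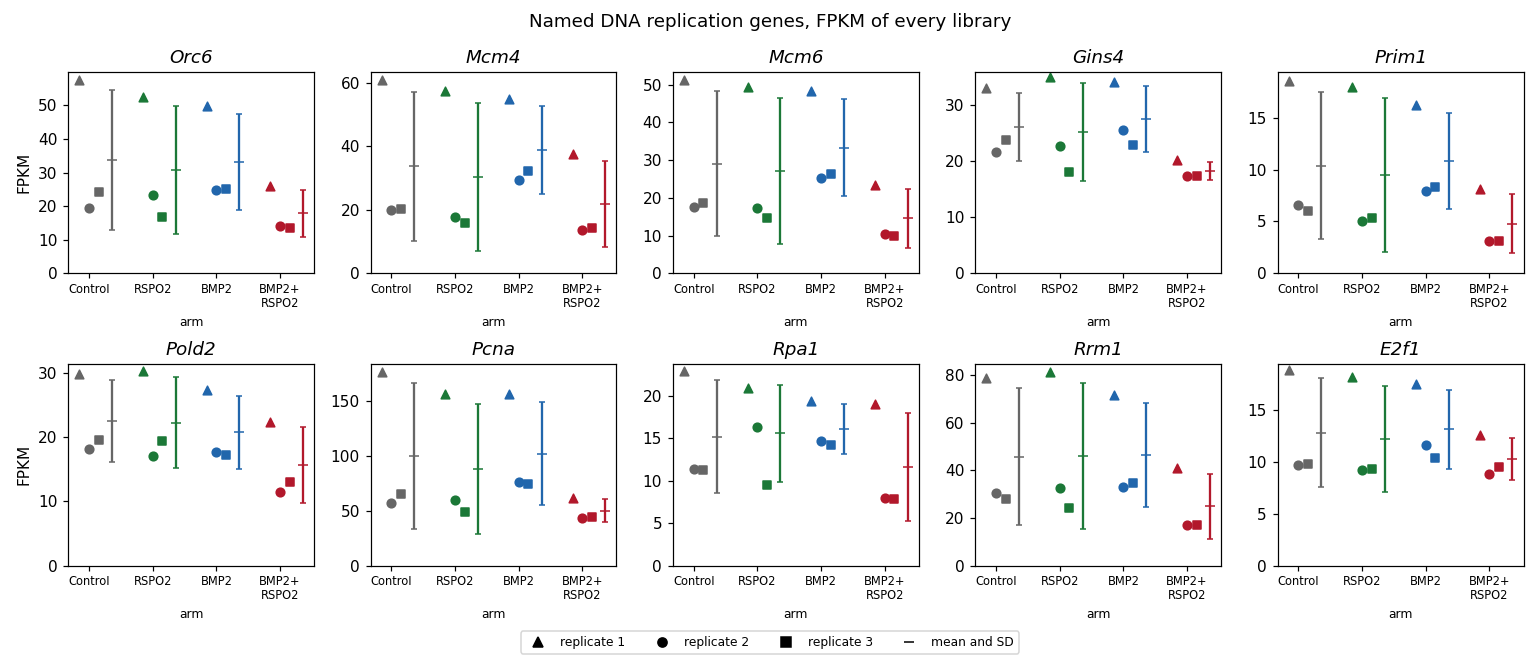
Each panel gives the FPKM of 1 gene in every library, with a triangle for replicate 1, a circle for replicate 2 and a square for replicate 3. The bar beside each arm is the mean and SD of its 3 replicates. The triangle is the highest point of every arm, the SD is wide because of it, and the BMP2+RSPO2 points lie lowest at the same symbol, except for the square of E2f1, where RSPO2 is lower (9.28 against 9.47 FPKM); the triangle of Rpa1 is nearly level with BMP2.

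With BMP2 alone, replication transcripts were higher than in Control in replicates 2 and 3 but not in replicate 1. Within replicates, 10 of 38 genes were higher in replicate 1, 36 in replicate 2 and 33 in replicate 3, and the median FPKM ratios were 0.912, 1.43 and 1.36. Higher in all 3 replicates were 9 genes (Cdt1, Mcm7, Mcm10, Cdc45, Gins1, Gins3, Pole2, Rpa2 and Rrm2), and Pold2 and Rfc4 were lower in all 3, against 13.6% of all tested genes higher and 31.9% lower in all 3. By the rule given with the processing, the numbers did not pair the libraries of these arms (lowest same-numbered correlation 0.079). The counts within replicates are therefore a description only. Over all 12 libraries, 0 of the 38 passed in limma, against 0.511% of all tested genes called higher and 1.00% called lower, and 0 of the 38 had an unadjusted p under 0.05. The median log2 change was 0.20 for the 38 genes and −0.06 for all tested genes, and it ranged from −0.04 to 0.64 when 1 library was left out at a time. In a fit of replicates 2 and 3 alone, 15 of the 38 rose and 0 fell, against 3.75% of all tested genes called higher and 4.59% called lower, with a median log2 change of 0.37. This fit leaves out the libraries in which the difference was not seen, so it describes 2 of 3 replicates and not the arms as a whole. The 15 included all 6 subunits of the MCM2-7 helicase. In replicates 2 and 3, Mcm4 was at 29.6 and 32.2 FPKM with BMP2 against 20.1 and 20.3 FPKM in Control, a log2 change of 0.59 (adjusted p of 0.0100 in limma), whereas replicate 1 was at 54.8 against 60.8 FPKM. Mcm6 had a log2 change of 0.49 there (adjusted p of 0.0263 in limma). Over all 12 libraries their adjusted p was 0.998 each. The other 9 called in replicates 2 and 3 were Cdc6 of the licensing factors, Cdc45 and Mcm10, the polymerase epsilon subunit Pole2, Rpa2, Lig1 and Chaf1a, and Rrm2 and Tk1. None of the clamp and loader genes or the S phase entry regulators was called.

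With both proteins, replication transcripts were also lower than in Control. Of the 38 genes, 37, 36 and 34 were lower in replicates 1, 2 and 3, at median FPKM ratios of 0.544, 0.748 and 0.704, and 32 were lower in all 3, against 51.7% of all tested genes. The unblocked fit called 0 of the 38, against 19.4% of all tested genes called lower and 3.65% called higher; the smallest adjusted p was that of Rfc4, 0.0586 in limma. With the block 21 fell and 0 rose, against 28.4% called lower and 5.37% called higher. Blocked and without BMP2+RSPO2 replicate 1, 16 fell and 0 rose, against 27.0% and 7.17% of all tested genes. The 21 were Orc6, Mcm2 to Mcm6, Cdc45, Gins4, Prim1, Pold1, Pold2, Pcna, all 5 loader subunits, Lig1, Rpa2, Rrm1 and Ccne1. The median log2 change of −0.52 stood beside −0.26 for all tested genes, and −0.27 beside −0.03 after median-of-ratios scaling, where the blocked fit called 5 of the 38 lower (Orc6, Mcm6, Prim1, Rfc4 and Rrm1), against 12.3% of all genes called lower and 10.9% called higher. A share of 5 in 38 is close to that background. Prim1 had a log2 change of −0.91 against Control (adjusted p of 0.239 in limma, 0.00283 with the block, 0.0117 with the block and scaling). Rrm1 had one of −0.81 (0.299, 0.00263 and 0.0138 in the same fits), and Pold2 one of −0.53 (0.220, 0.00288 and 0.118). Gins2, Gins4, Pold1, Rfc2 and Rfc4 did not overlap between these arms, 5 of 38 against 44.0% of all tested genes, and without BMP2+RSPO2 replicate 1 the count was 31 of 38 against 62.0%.

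With RSPO2 alone no replication gene passed the test. Relative to Control, 28, 29 and 33 of the 38 genes were lower in replicates 1, 2 and 3, at median FPKM ratios of 0.961, 0.906 and 0.867, and 19 were lower in all 3 replicates, against 16.0% of all tested genes. In limma 0 of 38 were called with or without the block (against 0.0173% of all tested genes called lower and 0.0606% called higher without it, and 0.0693% and 0.156% with it), and none of the 38 had an unadjusted p under 0.05. The median log2 change was −0.13, beside 0.01 for all genes. In replicates 2 and 3 alone 0 of 38 passed, against 0.598% of all tested genes called lower and 1.09% called higher, and 9 had an unadjusted p under 0.05.

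Adding BMP2 to RSPO2 gave lower values for 36, 31 and 31 of the 38 genes in replicates 1, 2 and 3, against 72.8%, 71.1% and 68.8% of all tested genes, and 26 were lower in all 3, against 49.5%. The median FPKM ratios were far apart, 0.577 in replicate 1 and 0.832 and 0.838 in the others. Here too the numbers did not pair the libraries (lowest same-numbered correlation −0.12), so these counts and ratios are a description only. The unblocked fit called 0 of the 38, against 21.8% of all tested genes called lower and 4.32% called higher, and 0 had an unadjusted p under 0.05. The median log2 change of −0.39 stood beside −0.26 for all tested genes, and after scaling it was −0.12 beside −0.02, with 8.28% of all genes called lower and 7.75% called higher. Mcm10 alone was higher in all 3 replicates, at ratios of 1.21, 1.49 and 1.39. Only Rfc4 did not overlap between these arms, 1 of 38 against 42.3% of all tested genes. Without BMP2+RSPO2 replicate 1 the count was 25 of 38 against 59.6%.

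The interaction asks whether RSPO2 acts differently with BMP2 than without it. Its median over the 38 genes was −0.60 on the log2 scale, beside −0.21 for all tested genes, and 37 of the 38 values were below 0. No gene passed (0 of 38 in limma, against 0.286% of all tested genes called lower and 0.00866% called higher), and 0 had an unadjusted p under 0.05. In replicates 2 and 3 alone 14 of the 38 passed, all below 0, against 7.08% of all tested genes called lower and 2.52% called higher, and these included all 6 subunits of the MCM2-7 helicase. With the block 0 of 38 passed, against 0.675% of all tested genes called lower and 0.113% called higher. Blocked and without BMP2+RSPO2 replicate 1, 3 passed below 0 (Rrm1, Pold2 and Mcm6, adjusted p of 0.0461, 0.0492 and 0.0495 in limma), against 3.91% and 1.11%. A difference between the RSPO2 effect with and without BMP2 was thus not called from all 12 libraries, and was called for some of the genes once libraries were left out. The comparisons share arms: BMP2 libraries stand on opposite sides of the comparison with Control and of that with BMP2+RSPO2.

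Other genes of the same pathway were read from lists, beside 13.0% of all tested genes called lower and 1.78% called higher with the block. With the block, BMP2+RSPO2 against BMP2 called lower 5 of 16 further origin and initiation genes (Gmnn, the geminin inhibitor of licensing, Wdhd1, Donson, Orc3 and Orc5) and 8 of 18 further fork genes, among them Top2a, Pola2 and Prim2. Of 6 genes for chromatin and DNA methylation at the fork it called 5 lower, among them Dnmt1, the maintenance methyltransferase. Of 20 further regulators of S phase entry it called 3 lower (Ccna2, E2f8 and Cdk4), a share close to that of all tested genes, and 1 higher (Rb1). In the mitotic list 12 of 15 were called lower, with a median log2 change of −1.02 beside −0.76 for the replication genes. Without BMP2+RSPO2 replicate 1 the blocked fit called lower 3 of 16, 7 of 18, 4 of 6, 2 of 20 and 8 of 15 genes of these lists, in the same order, beside 13.2% of all tested genes. With median-of-ratios scaling it called lower 2 of 16, 3 of 18, 3 of 6, 0 of 20 and 6 of 15, beside 5.06%. Rb1 was the 1 further regulator called higher in both. The unblocked fit called 0 of the 15 mitotic genes, beside 3.74% of all tested genes called lower for BMP2+RSPO2 against BMP2. In replicates 2 and 3 alone, BMP2 against Control called 14 of the 15 mitotic genes higher, against 3.75% of all tested genes. Their median log2 change was 0.63 beside 0.37 for the replication genes. This fit leaves out replicate 1, where the mitotic median was 38.2 FPKM with BMP2 and 39.1 FPKM in Control.

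Samhd1, Rb1 and Cdkn1b were called in the unblocked fit and were picked from the lists of further genes after their values were seen. That fit called 0.511% of all tested genes higher and 1.00% lower for BMP2 against Control. For BMP2+RSPO2 against BMP2 the shares were 0.641% and 3.74%. Samhd1, which degrades deoxynucleotides, was at 16.7, 15.1 and 16.4 FPKM in Control, 14.1, 16.1 and 13.1 in RSPO2, 23.3, 23.2 and 24.8 in BMP2 and 15.1, 15.1 and 14.4 in BMP2+RSPO2. BMP2 thus stood above every other arm without overlap. Samhd1 rose with BMP2 by a log2 change of 0.54 against Control (adjusted p of 0.0200 in limma) and fell by 0.64 on the log2 scale when RSPO2 was added (0.00916). The rise did not pass when any 1 of the 6 libraries compared was left out (adjusted p of 0.0525 to 0.112), and the fall had an adjusted p of 0.0532 after quantile normalization and 0.0572 without BMP2 replicate 3. Rb1, the retinoblastoma protein that restrains E2F, was at 4.39, 4.53 and 4.64 FPKM in BMP2 and at 6.45, 8.28 and 7.52 FPKM in BMP2+RSPO2, and it rose by a log2 change of 0.60 (adjusted p of 0.0234 in limma). The rise of Rb1 did not pass in 5 of the 6 limma fits without 1 of these libraries (adjusted p of up to 0.0888). Rbl1 and Rbl2 of the same list did not rise in this way. Rbl1 was at 8.98, 5.75 and 7.58 FPKM in BMP2 and at 7.16, 4.15 and 3.6 FPKM in BMP2+RSPO2. Rbl2 was at 7.12, 7.28 and 7.24 FPKM in BMP2 and at 6.17, 7.38 and 6.34 FPKM in BMP2+RSPO2. Cdkn1b, the cyclin-dependent kinase inhibitor p27, was at 26.8, 20.3 and 26.9 FPKM in Control and at 14.3, 14.5 and 15.4 FPKM in BMP2. Cdkn1b was at 22.9, 21.5 and 22.8 FPKM in RSPO2 and at 17, 16.9 and 13.6 FPKM in BMP2+RSPO2. It fell with BMP2 by 0.70 on the log2 scale (adjusted p of 0.0229 in limma, but 0.0514 after median-of-ratios scaling), and without 1 of 5 of the 6 libraries it did not pass (adjusted p of up to 0.109). Other inhibitors of these kinases are given for BMP2 and BMP2+RSPO2. Cdkn1a was at 243, 257 and 254 FPKM in BMP2 and 213, 435 and 438 in BMP2+RSPO2. Cdkn2c went from 21, 11.2 and 12.1 to 8, 5.07 and 5.69, and Cdkn2d from 31.8, 20.9 and 17.4 to 9.33, 10.8 and 11.5. Cdkn1c, Cdkn2a and Cdkn2b stayed at or under 0.17 FPKM in every library. The part of any of these genes in the levels of the replication transcripts was not tested.

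Genes with and without a match to the E2F motifs searched differed little in BMP2+RSPO2 against BMP2. Other forms of the E2F motif were not searched, so a window without a match is not shown to lack an E2F site. For BMP2+RSPO2 against BMP2 the median log2 change was −0.80 over the 12 genes with a motif and −0.70 over the 19 matched and tested genes without one, and their ranges, −1.18 to −0.42 and −1.10 to −0.31, overlapped almost wholly. For BMP2 against Control the medians were 0.26 and 0.14, and the ranges 0.07 to 0.49 with a motif and −0.18 to 0.47 without one. The difference between genes with and without a motif was not tested. Prim1 and Rrm1 followed Mcm6 as the genes with the smallest p in BMP2+RSPO2 against BMP2 with the block. The Mcm6 window holds 3 matches, and those of Prim1 and Rrm1 hold none in the forms searched. Both of the latter hold ttcccgc, which is TTTCCCGC without its first letter. This shorter form was not among those searched, and how often it occurs in other windows was not counted.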

How the data were processed

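The authors deposited 1 FPKM value per gene for each of 12 poly(A) RNA libraries (4 arms, 3 replicates), rounded to 2 decimals. Per the submitters' processing notes, cutadapt 1.10, FastQC 0.10.1, HISAT2 2.0, StringTie 1.3.4 and edgeR (no version or role given) were used with GRCm38 and mm10. Gene identifiers belong to the C57BL/6NJ strain annotation, so gene coordinates were not used, and promoter windows come from RefSeq by symbol. The deposited p-values and q-values do not name the groups compared and were not used. Depth is unknown: low values showed no steps of whole reads (in 66 library pairs, no bin of the log ratio held over 3.55% of genes at 0.2 to 1 FPKM in both), so no interval or floor is given, and FPKM can shift when a few genes take up much of a library.

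Values were transformed as log2(FPKM + 1), which understates changes of low genes. Genes at 1 FPKM or more in at least 3 libraries were fitted with limma 3.58.1 in R 4.3.3 (arm means over all 12 libraries, variance trend, 8 residual degrees of freedom, 6 with the block), with Benjamini-Hochberg adjustment over all 11548 genes per comparison. The unblocked fit of BMP2 against Control was run on simulated data with independent noise and no gap of replicate 1. The blocked fits and those without some libraries were not simulated. Groups come from sample titles. The replicate numbers were taken to pair the libraries where every same-numbered pair of deviations from the arm means correlated above 0.1 over genes. This held for RSPO2 with Control (0.63, 0.41 and 0.31), BMP2+RSPO2 with Control (0.37, 0.30 and 0.20) and BMP2+RSPO2 with BMP2 (0.36, 0.28 and 0.16), and not for BMP2 with Control (lowest 0.079) or BMP2+RSPO2 with RSPO2 (lowest −0.12). This pairing was read from the data, since no label says what a number shares. The rule did not set same-numbered pairs against differently numbered ones, which ran from −0.45 to 0.35. BMP2 replicate 2 with BMP2+RSPO2 replicate 3 gave 0.24, and BMP2 replicate 3 with BMP2+RSPO2 replicate 2 gave 0.17. Replicate 1 of either arm gave −0.34 to −0.18 with replicates 2 and 3 of the other. For these arms the numbers thus set replicate 1 apart and hardly tell 2 from 3. Per-library values are given for the most abundant gene of each of 8 roles and for the 3 genes with the smallest blocked p per comparison, if called. Samhd1, Rb1, Rbl1, Rbl2, the Cdkn genes, Rfc4, Fen1, Mcm10 and Ccne1 were named after their values were seen. Alternatives were another pseudocount (0.1), 2 other filters, quantile and median-of-ratios scaling, the block, leaving out libraries, and replicates 2 and 3 alone. The members, lists and alternatives were chosen with earlier results of these data known. Fits of replicates 2 and 3 with scaling, and list and overlap counts without BMP2+RSPO2 replicate 1 or with block and scaling, were added after seeing the data. The count over a list of further nucleotide supply genes is not reported here.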

Additional observations from a re-analysis of the deposited data

Results flagged for a closer look

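Ccne1, a cyclin E, was marked because its RSPO2 difference pointed one way without BMP2 and the other way with it in every replicate. It was at 1.04, 1.01 and 1.03 times the Control level with RSPO2 alone in replicates 1, 2 and 3, and at 0.734, 0.650 and 0.595 times the BMP2 level when RSPO2 was added to BMP2. The interaction for Ccne1 was −0.51 on the log2 scale, with an adjusted p of 0.764 in limma and 0.176 with the replicate block, so the difference between the effects did not pass the test. With 1 library left out at a time it ranged from −0.98 without Control replicate 1 to −0.03 without RSPO2 replicate 1.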

How the results depend on the processing

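Medians over the 38 replication genes moved by less than the spread between replicates (0.679 on the log2 scale) under every alternative run. That spread includes the gap of replicate 1 and exceeds the size of every median except −0.76 for BMP2+RSPO2 against BMP2, so staying within it says little. Without 1 library at a time the medians ranged from −0.62 to 0.33 (RSPO2 against Control), −0.04 to 0.64 (BMP2 against Control), −0.79 to −0.11 (BMP2+RSPO2 against Control), −0.98 to −0.47 (against BMP2), −0.69 to 0.07 (against RSPO2) and −1.08 to −0.17 (interaction). Those of RSPO2 and of BMP2 against Control and of BMP2+RSPO2 against RSPO2 thus changed sign. Counts of genes called lower stayed at 0 under the other pseudocount, filters and scalings without the block. Leaving out 1 library gave 0 calls too, except 1 for BMP2+RSPO2 against Control without RSPO2 replicate 1. BMP2+RSPO2 against Control had 21 called lower with the replicate block, 5 with block and scaling, 16 with block and without BMP2+RSPO2 replicate 1, 23 in replicates 2 and 3 alone, and 10 there with scaling. All tested genes called lower were 28.4%, 12.3%, 27.0%, 27.2% and 14.3% in the same order. Against BMP2 the same fits gave 28, 14, 23, 34 and 28, beside 13.0%, 5.06%, 13.2%, 16.4% and 9.86% of all tested genes. Against RSPO2, where the numbers did not pair the libraries, these fits gave 13, 3, 7, 9 and 3. All tested genes called lower there were 30.2%, 12.8%, 28.9%, 29.3% and 14.4%, so the last 4 counts lay below the share of all genes. The last fit also called 1 of the 38 higher, against 14.2%. The block called 0 for BMP2 and for RSPO2 against Control and for the interaction, and 3 lower for the interaction when BMP2+RSPO2 replicate 1 was left out. A fit of replicates 2 and 3 found 15 higher for BMP2 against Control (17 with scaling), beside 3.75% of all tested genes (4.62% with scaling). For the interaction it found 14 lower (12 with scaling), beside 7.08% (4.24% with scaling). Leaving out 1 library was run without the block, except for BMP2+RSPO2 replicate 1. Over all genes the calls went from 9 to 26 (RSPO2 against Control), 175 to 329 (BMP2 against Control), 506 to 1710 (BMP2+RSPO2 against BMP2) and 34 to 91 (interaction) with the block. Median-of-ratios scaling took BMP2+RSPO2 against Control from 2656 to 1693, against BMP2 from 506 to 276, against RSPO2 from 3015 to 1851 and the interaction from 34 to 4. Replicates 2 and 3 alone called 195, 963, 3994, 2512 and 1109 genes for RSPO2, for BMP2 and for both proteins against Control, for both against BMP2 and for the interaction. The cause of these moves was not tested. Of 36 cases of a library set against another arm, 25 matched their own number best.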
